A study of Mus musculus with 8 samples.

Results

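Cells that receive a cytokine or growth factor signal switch on genes whose products shut the same signal off. Cytokine receptors activate Janus kinases (JAKs) and STAT transcription factors, and STATs raise the suppressors of cytokine signalling (SOCS proteins and Cish), which block the receptor and its kinase. Mitogen-activated protein kinases (MAPKs) induce the dual-specificity phosphatases (DUSPs) that dephosphorylate them, NF-kB induces its own inhibitor Nfkbia, and Zfp36 (tristetraprolin) binds AU-rich mRNAs of inflammatory mediators and promotes their decay.

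The 10 genes described here are Socs1, Socs2, Socs3, Cish, Dusp1, Dusp4, Dusp5, Dusp6, Zfp36 and Nfkbia. They were chosen by name, with earlier results of these data known, from 14835 genes that had a retained probe for a RefSeq mRNA. Each is described by the brightest of its retained probes. A probe was retained when its signal was well above background on at least 4 of 8 arrays. Of the 10 genes, 9 were well above background on all 8 arrays. The exception was Dusp5, which was well above background on the 4 arrays of MI mice and on 1 array of sham-operated mice.

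Cardiac RNA came from the ventricles of male C57BL\6 mice, 24 h after surgery. In 4 MI mice the anterior interventricular artery was permanently occluded, and 4 mice had a sham operation. Per the paper, mice of both groups had a PET scan of the heart 24 h after surgery. For it they were injected with Acipimox and a glucose tracer and kept under isoflurane. The tissue of MI mice thus holds infarcted and non-infarcted muscle together, and in such tissue fewer cells of a type and less RNA per cell cannot be told apart. Each mouse had 1 array and was labeled in 1 colour. With 4 arrays a group, precision is limited by their number.

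Values are log2 signals, with each array shifted so that its spike-in RNA (added before labeling) had the same level on every array. A gene was called changed when its fold was over 2 and its p, from limma with Benjamini-Hochberg adjustment over 34038 probes, was under 0.05. The arrays were also scaled to their 75th percentile, an alternative that removes any difference in the general brightness of the arrays. The median log2 fold change of all probes was 0.11 with the spike-in shift and -0.02 with 75th percentile scaling. Of the called probes, 86.6% were higher in MI mice with the first, 72.2% with the second and 68.9% with quantile normalization. The cardiac stress gene Nppb was higher in MI mice by 1.68 (SE 0.26, adjusted p = 0.000655) without overlap of the groups, and all 7 cardiomyocyte markers had a retained probe. Arrays of a group correlated at 0.988 or more.

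Of the 9 feedback inhibitors measured above background on every array, 2 rose in MI mice (Socs3 and Socs1) and 0 fell, while 4.22% of the 13768 genes measured on all arrays rose. Dusp5 passed the same thresholds, but it was retained through the MI mice alone and is given below as a description. Among all 14835 genes 4.66% rose and 0.654% fell. In 4 of the 9 (Socs1, Socs2, Socs3 and Cish) every MI mouse was above every sham-operated mouse, which held for 9.03% of all genes. The signals of Dusp5 had the same order as measured, but the gene is not counted here. The median log2 fold change of the 9 was 0.41, against 0.06 over the genes measured on all arrays, and with 75th percentile scaling 0.28 against -0.07. Dusp1, Dusp4, Dusp6, Zfp36 and Nfkbia had overlapping groups and were not called.

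**Figure D1:**
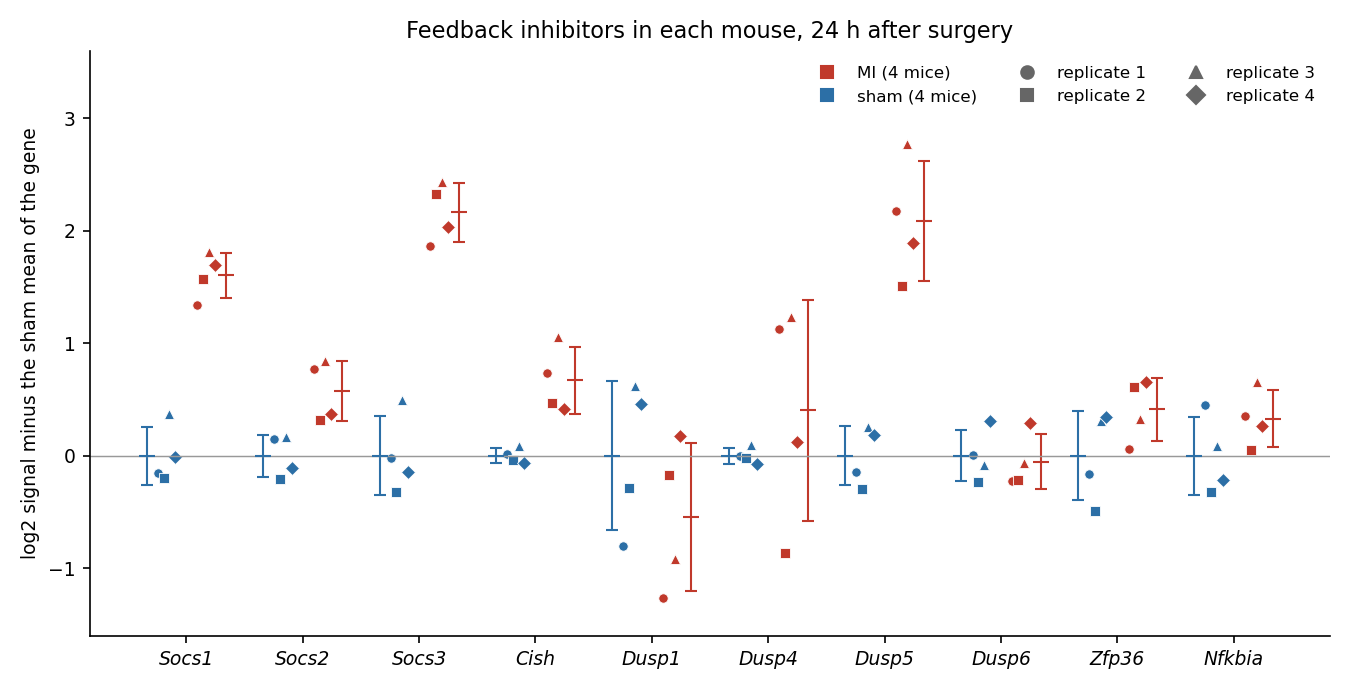
Log2 signal of each feedback inhibitor in each of 4 MI mice (red) and 4 sham-operated mice (blue), minus the sham mean of the same gene; symbols give the replicate, and horizontal ticks with bars are group means ± SD. Socs1, Socs3 and Dusp5 of MI mice lie 1.34 or more above the sham mean, while the MI mice spread over 1.44 for Dusp1 and 2.10 for Dusp4. The probes of Dusp4 and Dusp5 were dim.

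Promoter sequences of 8 of the 10 genes were in the RefSeq promoter table (mouse, GRCm38.p6). The 250 bases before each start were searched on both strands for 5 motifs. Stretches of 160 bases that end at the start are shown for Socs3 and Dusp5, which read higher in all MI mice as measured. A stretch is also shown for Dusp1, which did not and which varied among mice. Capitals mark the matches, and each line reads 5′ to 3′ on the gene's own strand.
Socs3, chr11:117969367-117969526, minus strand: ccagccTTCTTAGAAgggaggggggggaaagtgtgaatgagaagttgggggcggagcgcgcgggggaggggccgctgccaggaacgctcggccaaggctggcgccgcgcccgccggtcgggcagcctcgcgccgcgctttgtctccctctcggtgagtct
Dusp5, chr19:53528985-53529144, plus strand: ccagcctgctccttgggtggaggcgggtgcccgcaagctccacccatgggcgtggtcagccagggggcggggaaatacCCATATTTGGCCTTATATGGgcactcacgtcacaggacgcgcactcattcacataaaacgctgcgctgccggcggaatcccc
Dusp1, chr17:26508473-26508632, minus strand: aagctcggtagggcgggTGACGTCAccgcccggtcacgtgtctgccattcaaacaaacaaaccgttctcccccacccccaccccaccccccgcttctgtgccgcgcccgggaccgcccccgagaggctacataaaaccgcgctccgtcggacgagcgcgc

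The capitals in Socs3 are a STAT palindrome (TTCNNNGAA), which 7.02% of 32851 promoters held. Zfp36 held one as well, TTCTGCGAA, 17 bases before its start. The capitals in Dusp5 are a pair of CArG boxes, the element bound by serum response factor, side by side. A CArG box stood in 1.47% of all promoters, Zfp36 included (CCATAAAAGG), and a promoter with 2 or more occurred 6 times in the table. The capitals in Dusp1 are a cyclic AMP response element (TGACGTCA), which 1.55% of promoters held. Nfkbia held a match to the NF-kB consensus, GGAAATTCCC, 29 bases before its start, as did 3.90% of promoters. The AP-1 element (TGANTCA; 6.75% of promoters) was found in 0 of the 8 windows, and Socs1, Cish and Dusp6 had no match to any motif in theirs. Matches of letters are a description and do not show that a factor was bound in these hearts.

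In Socs1, Socs2, Socs3 and Cish all MI mice lay above all sham-operated mice (for Cish not with 75th percentile scaling), and Socs3 and Socs1 passed the test. Socs3 encodes the suppressor that binds gp130, the receptor chain shared by the interleukin-6 family. Its log2 signal was 12.81, 13.27, 13.38 and 12.98 in MI replicates 1 to 4, and 10.92, 10.62, 11.44 and 10.80 in sham replicates 1 to 4. The lowest MI mouse was 1.37 above the highest sham-operated mouse, and as measured by the scanner the spot read 6869 to 12431 intensity units in MI mice and 1556 to 2308 in sham-operated mice. The fold was 4.48 (log2 fold change 2.16, SE 0.25, 95% confidence interval 1.64 to 2.68, adjusted p = 2.88e-05). Relative to the median of all probes, the log2 difference was 2.05.

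Socs1 encodes the suppressor that inhibits JAK kinases directly and restrains interferon signals. MI replicates 1 to 4 had log2 signals of 7.95, 8.18, 8.42 and 8.31, and sham replicates 1 to 4 had 6.46, 6.41, 6.98 and 6.60. All 4 MI mice were above all 4 sham-operated mice, by a gap of 0.97 that was larger than the range of either group. The fold was 3.04 (log2 fold change 1.60, SE 0.23, 95% confidence interval 1.12 to 2.09, adjusted p = 0.000270). In a vsn fit, which adds a constant to every signal and so compresses dim probes, the log2 fold change was 0.72 and the gene was not called (adjusted p = 0.00199). Within the first row of arrays on the slide (2 mice a group) the log2 fold change was 1.63 (adjusted p = 0.0692), and within the second 1.58 (adjusted p = 0.0512).

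Socs2 and Cish, which are best known as STAT5 targets that restrain growth hormone and prolactin receptors, changed less. Cish had log2 signals of 14.04, 13.77, 14.36 and 13.72 in MI replicates 1 to 4. In the sham-operated mice the values were 13.32, 13.27, 13.39 and 13.24, with a standard deviation of 0.065 against 0.29 in MI mice (0.20 against 0.24 with 75th percentile scaling). MI mice lay above all sham-operated mice (two-sided exact permutation p = 0.0286, the smallest that 4 against 4 mice allow), but the log2 fold change of 0.67 (SE 0.23, 95% confidence interval 0.19 to 1.15) was not called (adjusted p = 0.110). With 75th percentile scaling the adjusted p was 0.0414 at a log2 fold change of 0.54, and the groups then overlapped.

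Socs2 read 11.18, 10.72, 11.25 and 10.78 in MI replicates 1 to 4 and 10.56, 10.20, 10.58 and 10.30 in sham replicates 1 to 4. These groups did not overlap either, although the lowest MI mouse and the highest sham-operated mouse were close. Its log2 fold change was 0.58 (SE 0.23, adjusted p = 0.191), and its other retained probes gave 0.62 and 0.67. With 75th percentile scaling it was 0.44 (adjusted p = 0.0296), and the standard deviation of MI mice fell from 0.27 to 0.17. At that scaling 4 of the 9 feedback inhibitors measured on all arrays (Socs1, Socs2, Socs3 and Cish) were higher at an adjusted p under 0.05 whatever the fold, as were 10.2% of all genes.

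**Figure D2:**
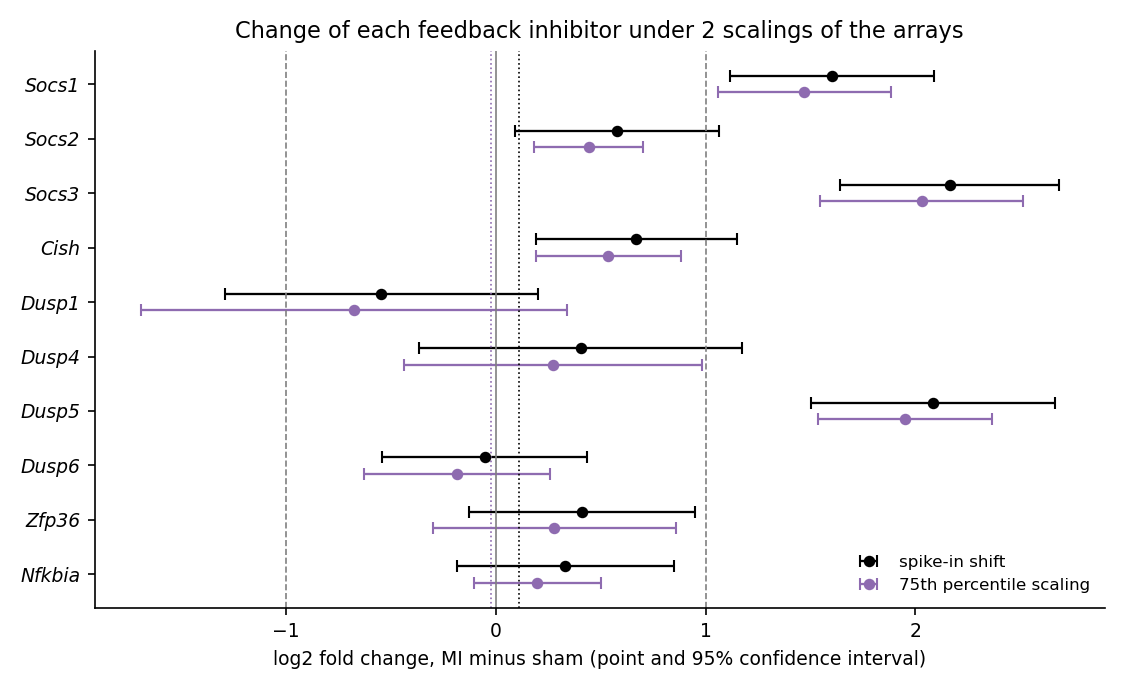
Log2 fold change, MI minus sham, of each feedback inhibitor with its 95% confidence interval, with the spike-in shift (black) and with 75th percentile scaling (purple); dashed lines mark a fold of 2 and dotted lines the median of all probes under each scaling. The intervals of Socs1 and Socs3 lie above the 2-fold line under both scalings, as does that of Dusp5, whose sham signals were near background, and those of Dusp1, Dusp4, Dusp6, Zfp36 and Nfkbia include 0 under both.

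The phosphatases of MAPKs did not move together. Dusp5, a nuclear phosphatase specific for ERK, read higher in MI mice as measured, by an amount that these arrays do not fix, and is given as a description. Its log2 signal was 5.86, 5.20, 6.46 and 5.58 in MI replicates 1 to 4, and 3.54, 3.40, 3.95 and 3.88 in sham replicates 1 to 4. All MI mice were above all sham-operated mice. The gene was dim, however, with 46.2 to 79.1 intensity units in MI mice and 10.4 to 13.9 in sham-operated mice, and among the latter only replicate 1 was well above background. Dusp5 thus passed the detection filter through the MI mice alone, and the size of its difference rests on sham signals near background. The difference in mean log2 signal was 2.08 as measured, 0.53 with normexp background correction (adjusted p = 0.131) and 0.26 in the vsn fit (adjusted p = 0.114), neither of which was called. It had no test where dim spots were left out as missing.

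Dusp6, the cytoplasmic phosphatase of ERK, had log2 signals of 11.68, 11.69, 11.84 and 12.20 in MI replicates 1 to 4. Sham replicates 1 to 4 had 11.91, 11.67, 11.82 and 12.21, so that the groups covered nearly the same range. The log2 fold change was -0.05 (SE 0.23, adjusted p = 0.947), with a 95% confidence interval of -0.54 to 0.43 that lies inside a 2-fold change in either direction. The direction was not stable, since the difference was 0.0012 without MI replicate 2.

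Dusp1, an immediate early phosphatase that acts mostly on p38 and JNK, was the feedback inhibitor with the lowest log2 fold change. It read 10.67, 11.76, 11.02 and 12.11 in MI replicates 1 to 4, and 11.13, 11.65, 12.56 and 12.40 in sham replicates 1 to 4. The groups overlapped, with MI replicates 1 and 3 the lowest of all mice and sham replicates 3 and 4 the highest. The log2 fold change of -0.55 (SE 0.35, 95% confidence interval -1.29 to 0.20) was not called (adjusted p = 0.484, exact permutation p = 0.257). Within the first row of arrays, which held replicates 1 and 2 of both groups, it was -0.18, and within the second -0.91.

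Dusp4, a nuclear phosphatase of ERK and JNK, read 6.29, 4.30, 6.40 and 5.29 in MI replicates 1 to 4, and 5.16, 5.15, 5.26 and 5.10 in sham replicates 1 to 4. The probe was dim, with 24.9 to 75.7 intensity units in MI mice and 29.5 to 42.6 in sham-operated mice. Sham-operated mice were almost alike (SD 0.070), while MI replicates 1 and 3 were far above them, MI replicate 4 was just above the highest of them and MI replicate 2 was below (SD 0.98). The log2 fold change was 0.40 (SE 0.36, adjusted p = 0.651, exact permutation p = 0.314). It was 0.83 without MI replicate 2 and 0.13 without MI replicate 3, and 0.10 in the vsn fit and 0.08 with normexp. With 75th percentile scaling the standard deviations were 0.71 and 0.21, and MI replicate 4 lay within the sham range. The MI mice in which Dusp4 was high, replicates 1 and 3, were those in which Dusp1 was low, under both scalings. This order was seen after the values were known, and 4 mice do not allow a correlation.

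Zfp36 and Nfkbia, which act on mRNAs and on NF-kB rather than on kinases, overlapped between the groups. Zfp36 read 8.43, 8.98, 8.70 and 9.03 in MI replicates 1 to 4 and 8.22, 7.89, 8.68 and 8.72 in sham replicates 1 to 4, a log2 fold change of 0.41 (SE 0.25, 95% confidence interval -0.13 to 0.95, adjusted p = 0.460). MI replicate 1 lay below sham replicates 3 and 4. Nfkbia read 14.06, 13.76, 14.36 and 13.98 in MI replicates 1 to 4 and 14.16, 13.39, 13.80 and 13.49 in sham replicates 1 to 4, a log2 fold change of 0.33 (SE 0.24, 95% confidence interval -0.19 to 0.85, adjusted p = 0.560). Sham replicate 1 was above MI replicates 1, 2 and 4, and the exact permutation p was 0.200.

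Dusp1 and Zfp36 belong to the genes that cells switch on within minutes of a stimulus, and the 10 immediate early genes of a list (Fos, Fosb, Jun, Junb, Egr1, Egr2, Atf3, Ier2, Nr4a1 and Btg2) were therefore set beside them mouse by mouse. For each mouse the median deviation of the list from the mean of 8 mice was taken on the log2 scale. It was -0.37, 0.66, 0.38 and 0.54 in MI replicates 1 to 4, and -0.85, -0.92, 0.45 and 0.32 in sham replicates 1 to 4. Sham replicates 1 and 2 were thus the lowest mice (with 75th percentile scaling, MI replicate 1 came between them), and MI replicate 1 was the lowest of the MI group, as it was for Dusp1 and Zfp36. Sham replicates 1 and 2 lay in the first row of the slide and sham replicates 3 and 4 in the second, and the part of the row in this was not tested. Of the 10, Junb rose (log2 fold change 1.25, SE 0.28, adjusted p = 0.0125) and 0 fell, with a list median of 0.46 and a range of -1.16 to 1.25.

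**Figure D3:**
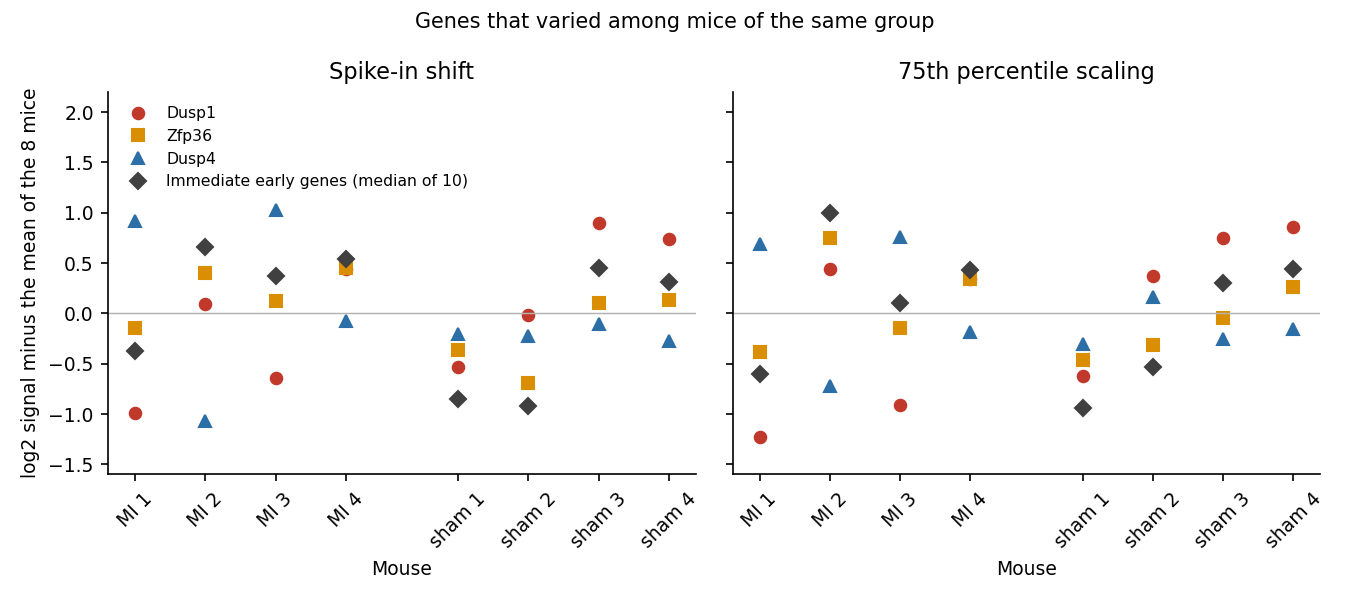
Deviation of Dusp1, Zfp36, Dusp4 and the median of 10 immediate early genes from their mean over 8 mice (log2), for each mouse, with the spike-in shift and with 75th percentile scaling. MI replicate 1 has the lowest value of the MI group for Dusp1, Zfp36 and the immediate early genes, and MI replicates 1 and 3 have the highest values of all mice for Dusp4, under both scalings. The probe of Dusp4 was dim.

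Close relatives of the feedback inhibitors were counted next, in gene lists that were chosen with earlier results of these data known. Beside these counts and those of the lists that follow, 4.66% of all 14835 genes rose and 0.654% fell. Of 4 other SOCS genes (Socs4 to Socs7) 0 were called, and the largest log2 fold change was 0.44 (Socs6, adjusted p = 0.341). Of 5 other MAPK phosphatases with a retained probe, Dusp2, an inducible phosphatase of immune cells, rose by 1.06 on the log2 scale (SE 0.25, adjusted p = 0.0175); with 75th percentile scaling it was 0.93 and not called. Of 6 Sprouty and Spred genes, which restrain the path from receptor to ERK, 0 were called, and Spred1 had 0.84 (adjusted p = 0.0444, under 2-fold). The other tristetraprolin genes, Zfp36l2 and Zfp36l1, had 0.36 and 0.31. Of 8 other JAK-STAT inhibitors, Ptpn6, a phosphatase of blood cells, rose by 1.38 (SE 0.22, adjusted p = 0.000860).

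Among 12 other NF-kB feedback genes 4 rose and 0 fell, and the list median was 0.86 on the log2 scale. These were the inhibitors Nfkbid (1.68, SE 0.27, adjusted p = 0.000868) and Nfkbie (1.43, SE 0.27, adjusted p = 0.00334), the ubiquitin-editing enzyme Tnfaip3 (1.31, SE 0.27, adjusted p = 0.00659) and the NF-kB cofactor Bcl3 (1.26, SE 0.24, adjusted p = 0.00420). Their values in MI and sham-operated mice did not overlap, unlike those of Nfkbia.

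Upstream of the SOCS genes, 6 of 8 ligands of JAK-STAT receptors were called higher and 0 lower, and the list median was 2.24 on the log2 scale. Among the 6, Csf2 and Csf3 were retained through the MI mice alone and are given as a description, although the count and the median hold them. The hematopoietic growth factor Csf2 was not well above background on any sham array. Its spot read 63.4 to 201 intensity units in MI mice and 2.42 to 2.77 in sham-operated mice. The difference in mean log2 signal was 5.21 as measured, 1.27 with normexp and 0.59 in the vsn fit, so these arrays do not fix its size. Il6 rose by 3.43 (SE 0.44, adjusted p = 0.000100), and Il11, a member of the same cytokine family, by 2.56 (SE 0.28, adjusted p = 2.26e-05). Il11 was dim in sham-operated mice (35.5 to 55.4 intensity units), and its difference was 1.62 with normexp and 0.97 in the vsn fit. Csf3, the growth factor of neutrophils, was among the 6 as well, but it was well above background on 1 sham array only, and its difference of 2.42 as measured was 0.56 with normexp and 0.30 in the vsn fit. On the receiving side, 0 of 9 listed receptors were called (median -0.20; Osmr 0.94, adjusted p = 0.0306; Prlr -0.68, adjusted p = 0.253), and 0 of 11 JAKs and STATs (median 0.35; Stat2 0.57 and Stat3 0.55, adjusted p = 0.183 and 0.265). With 75th percentile scaling 1 receptor was higher (Osmr) and 3 were lower (Lifr, Prlr and Il11ra1) at an adjusted p under 0.05 whatever the fold. Of the JAKs and STATs 1 was then higher (Stat3) and 2 were lower (Stat5a and Stat5b). The list of receptors does not hold Il4ra, which stands among the STAT3 targets, or the receptor of Csf2.

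Of 9 STAT3 target genes 5 rose, with a median of 1.20, while 4.66% of all genes rose. The receptor chain Il4ra (1.54, SE 0.24, adjusted p = 0.000684) and the metalloproteinase inhibitor Timp1 (1.32, SE 0.27, adjusted p = 0.00606) led them, followed by Bcl3 and Junb. Of 8 ERK target genes 4 rose, with a median of 1.06. Fosl1, an AP-1 subunit, rose by 4.57 as measured (SE 0.39, adjusted p = 1.51e-06) and was well above background on 3 of 4 sham arrays. Its sham spots were dim (11.6 to 44.3 intensity units), and the difference was 2.83 with normexp and 1.88 in the vsn fit, so its size is not fixed. Ier3 rose by 2.50 (SE 0.27), Phlda1 by 2.06 (SE 0.30) and the transcription factor Myc by 1.28 (SE 0.30). Of 10 MAP kinases, Mapk13, a p38 isoform, rose by 1.22 (SE 0.24, adjusted p = 0.00397).

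Downstream of Zfp36, 10 of 10 listed mRNAs known as targets of tristetraprolin rose, with a median of 2.86 and a range of 2.04 to 4.26. The list was chosen with earlier results of these data known, so the count is a description. Most of the 10 encode inflammatory mediators, with the apoptosis regulator Ier3 (2.50) and the urokinase receptor Plaur (2.43) as exceptions. As measured, the largest changes were those of the neutrophil chemokine Cxcl2 (4.26, SE 0.38), of Il6, of Il1b (3.32, SE 0.45) and of the prostaglandin synthase Ptgs2 (3.01, SE 0.36). This order is not fixed, since Cxcl2 and Ptgs2 were dim in sham-operated mice (13.9 to 39.1 and 30.3 to 75.4 intensity units). They had 2.43 and 1.88 with normexp and 1.57 and 1.17 in the vsn fit. Ccl2 had 2.64 and 2.56 there, and Cxcl1 2.56 and 2.28. Tnf, also dim, had 0.82 with normexp and 0.45 in the vsn fit. Zfp36 itself, at 0.41, was not called.

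**Figure D4:**
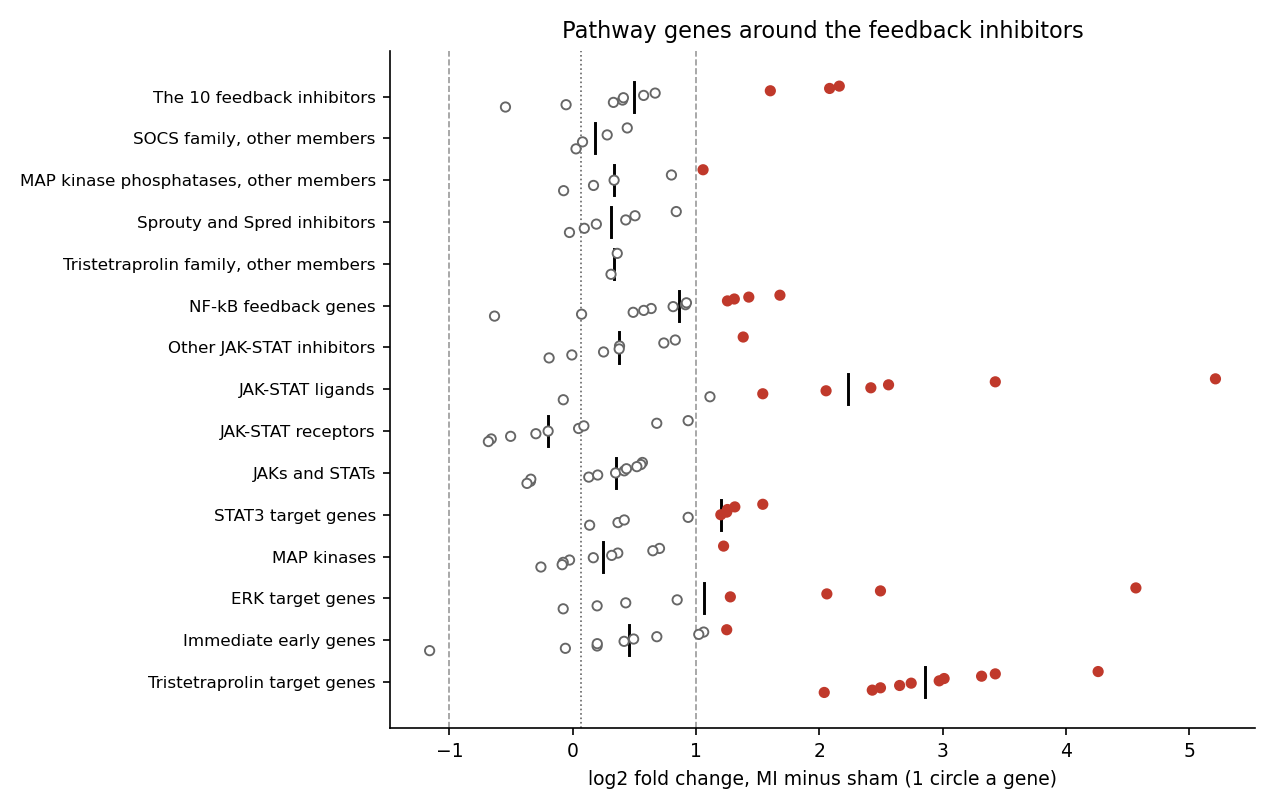
Log2 fold change, MI minus sham, of every gene with a retained probe in the list of 10 feedback inhibitors and in 14 lists of the pathways around them; filled red circles are called genes, black bars list medians, dashed lines a fold of 2 and the dotted line the median of all genes. Ligands (6 of 8 called, with Csf2 and Csf3 retained through the MI mice alone) and tristetraprolin targets (10 of 10) lie to the right. Receptors (0 of 9) have a median of -0.20 and JAKs and STATs (0 of 11) a median of 0.35, beside 0.07 over all genes.

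Markers of cell types were counted beside these results. Of 6 neutrophil markers with a retained probe 5 rose (median 3.05 on the log2 scale, with Retnlg at 4.27, Cxcr2 at 3.70, Mmp8 at 3.08 and S100a8 at 3.03). Cxcr2 and Mmp8 were dim in sham-operated mice (21.3 to 62.4 and 36.9 to 80.6 intensity units). They had 2.22 and 1.98 with normexp and 1.49 and 1.32 in the vsn fit. Csf3r, at 0.09, was not called. Sums given here are of signals as scanned, not normalized between arrays, so differences in array brightness enter them. The 75th percentile of an array was 426 to 536 in MI mice and 326 to 544 in sham-operated mice. The summed signal of the 6 neutrophil markers was 232425 to 396241 intensity units in MI mice and 58440 to 89990 in sham-operated mice. Csf3r alone read 42087 to 50968 of these units in MI mice and 32710 to 56010 in sham-operated mice. The marker Ly6g had no retained probe. Of 6 monocyte and macrophage markers 2 rose (Cd14 2.27, Ccr2 1.23), while Lyz2 (0.16), Itgam (0.14), Csf1r (-0.15) and Adgre1 (-0.24) were not called and the list median was 0.15 (0.02 with 75th percentile scaling). The value of Itgam is that of its brightest probe only. The paper lists Itgam among its differentially expressed genes, so this probe does not show that Itgam was unchanged. The summed signal of the list was 47461 to 56772 in MI mice and 31249 to 48301 in sham-operated mice. Itgam alone read 28298 to 33617 of these units in MI mice and 19159 to 32648 in sham-operated mice. Cd68 had no retained probe for a RefSeq mRNA, although the paper reports it as raised in MI mice on these arrays. Of the 7 cardiomyocyte markers 0 were called (median -0.06), with sums of 2146640 to 2336190 and 1763210 to 2307320. The part of these cells in the changes of Socs1, Socs3, Dusp5 and the genes around them was not tested.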

How the data were processed

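One array of the mouse SurePrint G3 type was hybridized per mouse (4 MI, 4 sham). Per the file headers, the deposited intensity of a spot is the processed signal of Feature Extraction 11.0.1.1: background-subtracted, detrended within the array, with a surrogate value for spots not above background, and not normalized between arrays. The authors' log2 values rest on spots well above background and were normalized on spike-in probes with limma and vsn. They equal the log2 of the processed signal plus a constant of 3.16 to 19.6, and served as an alternative.

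Here log2 signals were shifted per array by the mean of 234 spots of 7 spike-in probes (shifts of -0.38 to 0.33), without a constant, because an own vsn fit gave constants of 166 to 257 beside a median signal of 210 of the retained probes. Flagged outlier spots and control probes were left out and spots of a probe averaged. Of 55681 probes 34038 were retained. Per array, 58.6% to 66.4% of spots passed the well-above-background flag, and 1 spot was saturated. Groups were compared with limma 3.58.1 (R 4.3.3), and single genes with an exact two-sided permutation test over 70 labelings (Python 3.11.15, numpy 2.4.6, pandas 2.3.3, scipy 1.17.1, matplotlib 3.10.9). limma and significance analysis of microarrays were tested on simulated data. The 8 arrays lay on 1 slide, from 1 scan, in 2 rows of 2 MI and 2 sham mice.

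RefSeq accessions were named through the mouse RefSeq gene table. The 10 genes and 22 gene lists (145 of 153 genes with a retained probe) were chosen with earlier results of these data known. From each list the text names up to 4 called genes with the largest absolute log2 fold change, or, where none was called, 1 or 2 with the largest. Alternatives were 75th percentile scaling, vsn, quantile normalization, the authors' values, normexp on median intensities (offset 50), dim spots as missing, other detection filters, an unmoderated t-test, significance analysis of microarrays, replicate and array row blocks, the mean of a gene's probes and each mouse left out. Fits within array rows, and 75th percentile scaling with the block or a mouse left out, were added after seeing the data.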

Additional observations from a re-analysis of the deposited data

Results flagged for a closer look

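Among 150 groups of 4 mice (2 for each of 75 genes, those named in the text among them), 6 had a mouse whose gap to its nearest neighbour, as a share of the range of the group, was over Dixon's 95% critical value, and chance alone gives about 1 in 20. In 4 of the 6 this mouse was sham replicate 3. Its log2 signal of Socs4 was 6.61 against 6.10 to 6.15 in the other sham-operated mice (ratio 0.901). For Spred1 it was 7.86 against 7.40 to 7.46 (ratio 0.881). For Il1b it was 8.66 against 7.14 to 7.37 (ratio 0.849). For Ptgs2 it was 6.61 against 5.05 to 5.16 (ratio 0.935). In MI replicate 1, Cd14 was 11.75 against 12.73 to 12.82 in the other MI mice (ratio 0.915). In MI replicate 2, Socs7 was 10.87 against 11.19 to 11.23 (ratio 0.879). With 75th percentile scaling 0 of the 6 passed this limit. Sham replicate 3 also had the highest sham value in 7 of the 10 feedback inhibitors with the spike-in shift and in 2 of 10 with 75th percentile scaling.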

How the results depend on the processing

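Socs3 was called under every alternative run. The number of called feedback inhibitors was 3 and fell to 1 (Socs3) in the vsn fit and to 2 with normexp, within each array row and wherever Dusp5 had no test, and it was 3 with each mouse left out in turn, where the log2 fold change of Socs3 was between 2.06 and 2.33 and of Socs1 between 1.53 and 1.73. For Dusp5 leaving out a mouse tests nothing, since 3 of 4 sham signals were not well above background. Dusp5 had no test with the authors' values, with dim spots as missing or with detection on all 8 arrays. The number of called probes, 1520, was 333 in the vsn fit, 988 with the authors' values, 610 with normexp, 992 without a detection filter, 635 with the t-test, 538 within the first array row and 475 within the second, and between 1240 and 1853 with a mouse left out. Of the list genes 39 were called, 22 in the vsn fit, 23 and 20 within the array rows, and between 37 and 42 with a mouse left out. The log2 fold change of Dusp6 turned positive within the second array row (0.00065) and, with a mouse left out, ranged from -0.17 to 0.05, above 0 without MI replicate 1 (0.0035), MI replicate 2 (0.0012) or sham replicate 4 (0.049). The cause of these differences was not tested. With the replicate number as a block 3 feedback inhibitors, 1551 probes and 39 list genes were called, and 4308 probes against 1858 had an adjusted p under 0.05, Socs2 and Cish among them. Deviations of mice with the same number correlated at 0.196, 0.0416, -0.0731 and 0.00707, and only MI replicate 1 correlated best with its own number, so the numbers were not taken to pair the mice. With 75th percentile scaling and the block, 1369 probes were called. Signals near background limit Dusp5, Csf2 and Csf3. Dim sham signals limit the size of the differences of Fosl1, Il11, Cxcl2, Ptgs2, Tnf, Cxcr2 and Mmp8.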

Other observations

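Among markers of other cell types, few were called. Of 4 smooth muscle markers Acta2, which activated fibroblasts also express, rose by 1.47 (SE 0.28, adjusted p = 0.00431). Of 6 fibroblast markers 0 were called (median -0.46; Col3a1 -0.75, adjusted p = 0.274; Col1a1 -0.57, adjusted p = 0.411), and of 5 endothelial markers 0 (median 0.18; Pecam1 0.66, adjusted p = 0.214). Of the cardiomyocyte markers Pln had -0.55 (adjusted p = 0.256). Of 3 T cell markers Cd3d rose by 1.12 (adjusted p = 0.00748) while Cd4 had 0.19 and Cd3e -0.11, and of 4 B cell markers Ms4a1 was called at 1.25 (adjusted p = 0.0181), but was well above background on only 3 MI arrays and 1 sham array. With 75th percentile scaling Cd3d had 0.99 (adjusted p = 0.00997) and Ms4a1 1.12 (adjusted p = 0.103), and neither was called. Both were dim, and with normexp they had 0.31 and 0.12.

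Behind the start of Cish, in bases 1 to 20 of the transcript (chr9:107296659-107296678, plus strand, GRCm38.p6, RefSeq), a pair of STAT palindromes follows each other, with the fixed letters in capitals: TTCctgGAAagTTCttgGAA. This was looked up after the sequence had been seen. Of 32851 promoters 4 held 2 or more such palindromes in the 50 bases from the start on. Cish was the feedback inhibitor with the smallest standard deviation among sham-operated mice with the spike-in shift (0.065; with 75th percentile scaling that was Socs2, 0.078) and had a log2 fold change of 0.67 that was not called.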
